A study of Mus musculus with 2 samples.

Results

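The 9 genes described here are commonly read in prostate cancer (PCa) as markers or drivers of a neuroendocrine or plastic state. They are Syp, Chga, Eno2, Ncam1 and Insm1, the transcription factor genes Pou3f2, Foxa2 and Sox2, and the chromatin gene Ezh2. The rule that chose them was a list of names, with no threshold on a value, applied to the 32285 genes listed for each library. Tumors were grown from wild-type RM-1 cells, a mouse prostate cancer cell line, placed orthotopically in the prostate of C57BL/6 mice. One tumor sample was treated with vehicle (control) and 1 with enzalutamide (ENZ), a hormonal therapy drug, and each gave a single 10x Genomics 3′ library. The tissue came from a pair of mice, and the age of the mice was not given in the sources used here. Immune cells were enriched with an isolation kit and stained for CD45 during sorting, so shares of cell types reflect that step. RM-1 is 1 cell line, and the study used it as a line that is resistant to ENZ from the start.

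Neuroendocrine prostate cancer is a form of the disease in which tumor cells lose luminal traits and take on traits of neurons and hormone-secreting cells. In patients it can emerge under hormonal therapy, and the term lineage plasticity names that shift. Syp and Chga proteins sit in secretory vesicles, Eno2 is a neuronal form of a glycolytic enzyme, and Ncam1 (CD56) is an adhesion molecule, and all 4 are read as markers, while Insm1, Pou3f2, Foxa2, Sox2 and Ezh2 act in the nucleus.

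In the cancer cells of these tumors, Ncam1, Eno2, Foxa2, Sox2 and Ezh2 were readily found, Syp was no higher than in immune cells, and Insm1 and Pou3f2 were at the edge of detection or near it. Between the libraries, Sox2 was lower in ENZ than in control at a ratio of 0.775, Eno2 was higher at 1.31 and Ncam1 at 1.17, while Foxa2 and Ezh2 were close to equal at 1.03. Chga had a ratio of 15.4 that came from 1 barcode rich in endothelial genes. Ezh2 rose with the division markers of the cells, Ncam1 was highest in the cells with most of them, and Eno2 was lowest there.

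By the GENCODE M21 annotation on GRCm38, all 9 are protein-coding genes. Sox2, at chr3:34650405-34652461 on the plus strand, lies inside the non-coding gene Sox2ot on the same strand, so reads of these genes may not be told apart in full. Sox2ot was at 2.92 CPM (UMI counts per 1000000) in control and 2.68 CPM in ENZ cancer cells. Ncam1, at chr9:49502136-49798925 on the minus strand, overlaps Gm11149 on the other strand, which stood at 2.70 and 2.81 CPM. Ezh2 lies at chr6:47530139-47595341, Eno2 at chr6:124760053-124769673, Foxa2 at chr2:148042877-148046969 and Pou3f2 at chr4:22482780-22488366, all on the minus strand. Chga lies at chr12:102554969-102565028, Insm1 at chr2:146221921-146225020 and Syp at chrX:7638471-7653256, all on the plus strand.

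The study named CREB as a factor acting on stem cell genes and reported its binding to promoters that include that of SOX2. E2F factors are known regulators of Ezh2. RefSeq promoter windows on GRCm38.p6, from 250 bases before to 50 after the start that RefSeq gives, which can lie apart from the GENCODE start above as it does for Chga and Ezh2, were at hand for 7 of the 9 genes, all but Ncam1 and Insm1. The cAMP response element TGACGTCA was in none of them and in 1.79% of 32851 windows, on either strand. Its half-site TGACG, which lies inside the full element, was in those of Chga and Foxa2 and in 20.8% of all. The E2F motif TTTGGCGC was in that of Ezh2 and in 0.514% of all, and TTTCCCGC was in none of the 7 and in 1.07% of all. The stretches with a match are shown 5′ to 3′ on the strand of the gene, with the motif in capitals, because they are the matches to the factors named. The Chga stretch is chr12:102554841-102554940 on the plus strand and ends 1 base before the RefSeq start, the Foxa2 stretch is chr2:148046954-148046983 on the minus strand, and the Ezh2 stretch is chr6:47595012-47595041 on the minus strand. A match is a description and not a binding site, and a window without a match says nothing on binding.
Chga: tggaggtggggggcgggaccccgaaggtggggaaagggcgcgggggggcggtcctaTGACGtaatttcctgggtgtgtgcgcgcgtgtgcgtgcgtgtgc
Foxa2: gaggactgaggtaacTGACGaccagggcgg
Ezh2: attgggttgctgcgTTTGGCGCtcggtccg

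The cancer cells were barcodes with at least 8000 unique molecular identifiers (UMIs), at most 20% mitochondrial UMIs, at most 1 UMI of Ptprc (the gene of CD45) and a sum of at least 5 UMIs of Cacna2d1, Rbfox2, Kif21a and Rhox5, which is called the marker sum below. The control library held 3807 such cells with a median of 21957 UMIs, and the ENZ library held 4290 with a median of 22693.5. Immune cells were barcodes with at least 2 UMIs of Ptprc, at least 1000 UMIs and at most 20% mitochondrial UMIs, and numbered 4674 in control (median 5003.5 UMIs) and 3406 in ENZ (median 4980.5 UMIs). Levels are UMI counts per 1000000 UMIs of the pooled cells (CPM), and brackets after a level or ratio give its 95% interval. The intervals cover counting error only. With 1 library per condition there is no replicate check, so no test was made between conditions, and a library difference and a treatment difference cannot be told apart.

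The labels call the samples prostate cancer cells. In the cancer cells all 8 fixed cancer cell markers were detected. Their summed level was 2648 CPM in control and 2696 CPM in ENZ, beside 1055 and 768 CPM in the immune cells. The list includes Cacna2d1, Rbfox2, Kif21a and Rhox5, the genes of the cancer cell rule. The sum and its excess over the immune cells were thus partly set by that rule. The most abundant was Rhox5, an X-linked homeobox gene that the rule used, at 1046 and 907 CPM. Among the epithelial markers, Krt8 stood at 437 CPM in control and 508 CPM in ENZ, while Epcam, a general epithelial adhesion gene, stood at 3.09 and 2.90 CPM. A keratin sum (Krt8 and Krt18) of at least 5 UMIs was found in 68.0% and 76.5% of these cells. The rule also let through 81 control and 82 ENZ cells, 2.13% and 1.91%, that held UMIs of at least 5 of 8 endothelial or at least 6 of 8 fibroblast markers. These barcodes mattered for Chga, as given below.

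Syp encodes synaptophysin, a membrane protein of secretory vesicles. It gave 44 UMIs in the control cancer cells, 0.439 CPM [0.319 to 0.589], and 39 UMIs in the ENZ cancer cells, 0.343 CPM [0.244 to 0.469]. The intervals of the libraries overlapped widely, and the ENZ to control ratio was 0.781 [0.495 to 1.23]. In the immune cells it stood at 1.05 CPM in control and 0.648 CPM in ENZ, so the level in the cancer cells did not exceed that in the immune cells in either library. Of the 44 immune UMIs in control, 11 came from 1 barcode with 3 UMIs of Ptprc and UMIs of 5 of 10 macrophage or monocyte markers.

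Chga encodes chromogranin A, a packing protein of dense-core granules. The control cancer cells held 2 UMIs of it, 0.0199 CPM, and the ENZ cancer cells held 35 UMIs, 0.308 CPM, a ratio of 15.4 [3.96 to 132]. Of the 35 ENZ UMIs, 28 came from 1 barcode. That barcode had no Ptprc, Krt8 or Krt18 UMI but held 20 UMIs of Pecam1, 19 of Cdh5 and 41 of Cldn5, all endothelial genes, and UMIs of 6 of 8 endothelial markers. It also held UMIs of 4 of 8 fibroblast and 4 of 8 cancer cell markers. It passed the cancer cell rule with a marker sum of 24, of which 18 were UMIs of Cacna2d1. Without the barcodes rich in endothelial or fibroblast markers, 2 UMIs remained in control and 7 in ENZ, a ratio of 3.06 [0.582 to 30.2], each UMI in a cell of its own. The control library held a barcode outside both cell groups with 18 UMIs of Chga and UMIs of 8 of 8 endothelial markers. That control barcode held UMIs of 2 of 8 cancer cell and 0 of 8 fibroblast markers, with a marker sum of 3.

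Eno2 encodes neuron-specific enolase, a glycolytic enzyme. Its level was 5.71 CPM [5.25 to 6.19] in the control cancer cells and 7.45 CPM [6.96 to 7.97] in the ENZ cancer cells. The intervals did not overlap, and the ratio was 1.31 [1.17 to 1.45]. In the immune cells the levels were 2.05 and 2.43 CPM, with a ratio of 1.19 [0.839 to 1.67]. At least 1 Eno2 UMI was present in 13.2% of control and 15.97% of ENZ cancer cells, and in 1.63% and 1.59% of the far shallower immune cells. No cancer cell held more than 5, so the gene was thinly spread rather than held by a few cells.

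Ncam1 encodes the neural cell adhesion molecule, a surface protein that binds its like on neighbouring cells. It stood at 52.3 CPM [50.9 to 53.8] in the control cancer cells and 61.0 CPM [59.6 to 62.5] in the ENZ cancer cells, and the intervals did not overlap. The ratio was 1.17 [1.13 to 1.21] and was as large, 1.18 [1.14 to 1.23], without the cells rich in endothelial or fibroblast markers. Ncam1 UMIs were found in 50.4% of control and 54.7% of ENZ cancer cells and in 6.05% and 5.17% of immune cells. The highest count in 1 cell was 22 in control and 32 in ENZ. In the immune cells Ncam1 stood at 18.4 CPM in control and 16.9 CPM in ENZ, a ratio of 0.918 [0.813 to 1.04].

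Insm1 encodes a zinc finger repressor that acts in the development of neuroendocrine cells. It gave 34 UMIs in the control cancer cells, 0.339 CPM, and 46 UMIs in the ENZ cancer cells, 0.405 CPM. The ratio of 1.19 [0.749 to 1.92] held 1 within its interval, and a difference was not detectable at this depth. The immune cells held 8 and 7 UMIs.

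Pou3f2 encodes BRN2, a POU domain factor of neural cells. It was found in 2 UMIs in the control cancer cells and none in the ENZ cancer cells, where 0 of 4290 cells with a UMI allows, by a limit of 3 counts, a share of cells with a UMI of up to 0.0699%. The immune cells of each library held 1 UMI, so the gene was at the edge of detection everywhere and no ratio is given.

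Foxa2 encodes a forkhead factor of endoderm that opens chromatin. It stood at 8.91 CPM [8.33 to 9.51] in control and 9.15 CPM [8.60 to 9.72] in ENZ cancer cells. The intervals overlapped almost fully, with a ratio of 1.03 [0.938 to 1.12]. Cells with a UMI made up 19.0% in control and 18.8% in ENZ, beside 2.48% and 1.56% of immune cells. In the immune cells Foxa2 stood at 3.69 CPM in control and 2.35 CPM in ENZ, a ratio of 0.636 [0.462 to 0.866]. The ENZ value was not the lower one in immune cells with a marker sum of at most 1. These held 10 and 9 UMIs, 0.428 CPM in control and 0.550 CPM in ENZ.

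Sox2 encodes a high mobility group factor of pluripotent and neural stem cells. It was at 8.62 CPM [8.05 to 9.21] in the control cancer cells and at 6.67 CPM [6.21 to 7.17] in the ENZ cancer cells. The ENZ library was the lower one, the intervals did not overlap, and the ratio was 0.775 [0.702 to 0.855]. The share of cells with a UMI was 16.5% in control and 13.0% in ENZ, beside 1.84% and 1.15% of immune cells. No cancer cell held more than 7 Sox2 UMIs. The immune cells stood at 3.02 CPM in control and 2.07 CPM in ENZ, a ratio of 0.683 [0.484 to 0.952]. The ENZ value was not the lower one in immune cells with a marker sum of at most 1. These held only 4 and 3 UMIs, 0.171 CPM in control and 0.183 CPM in ENZ.

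Ezh2 encodes the catalytic subunit of Polycomb repressive complex 2 (PRC2), which methylates histone H3 in silenced chromatin. It stood at 105 CPM [103 to 107] in the control cancer cells and 108 CPM [106 to 110] in the ENZ cancer cells. These levels were close, with a ratio of 1.03 [1.001 to 1.05], whose interval took in 1 without the cells rich in endothelial or fibroblast markers (1.02 [0.998 to 1.05]). UMIs of Ezh2 were present in 73.4% of control and 75.4% of ENZ cancer cells and in 31.5% and 28.7% of immune cells. The immune cells were not far below, at 93.7 CPM in control and 85.3 CPM in ENZ.

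**Figure D1:**
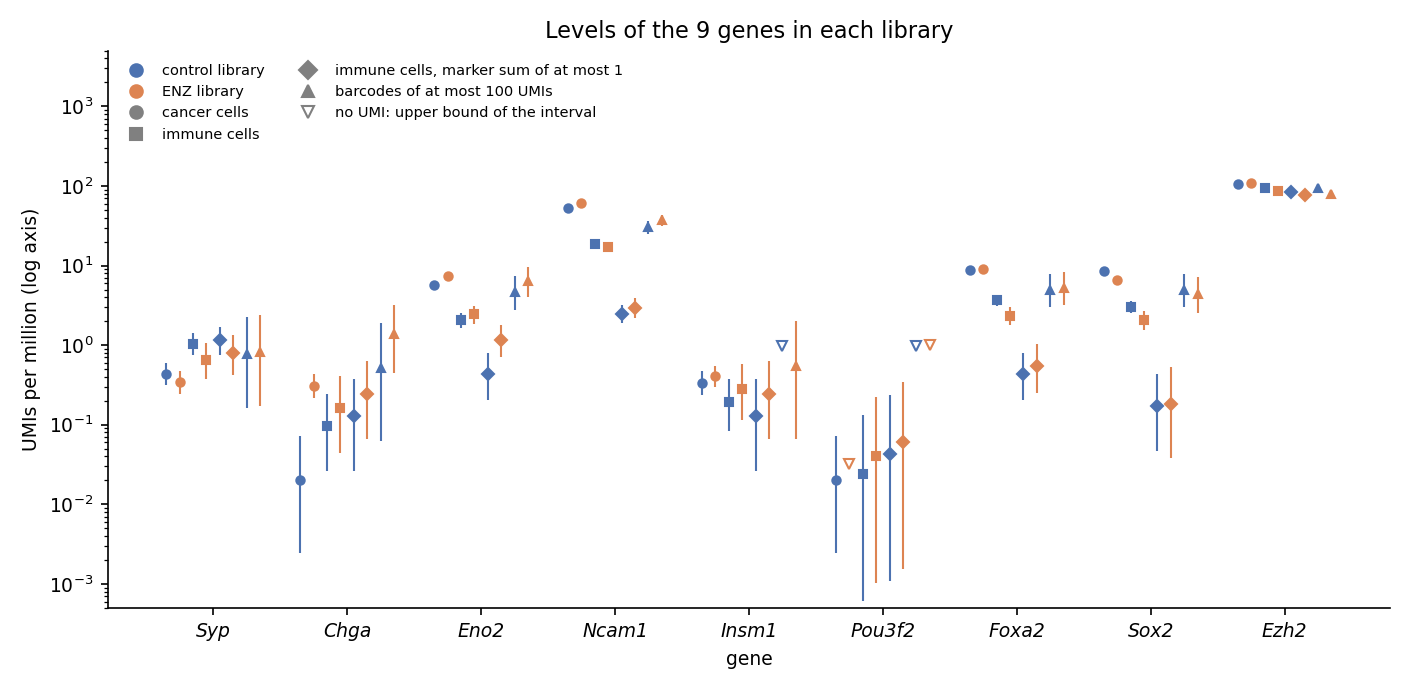
Level of each gene in CPM (log axis) in the cancer cells, the immune cells, the immune cells with a marker sum of at most 1 and the barcodes of at most 100 UMIs of each library, with bars for the 95% counting interval and open triangles for the upper bound where no UMI was found. Syp was no higher in cancer cells than in immune cells. Ncam1 reached 52.3 and 61.0 CPM in cancer cells, and Ezh2 stood at 105 and 108 CPM there. Immune cells with a marker sum of at most 1 held Ezh2 at 83.7 and 77.5 CPM.

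Across conditions, a gene with at least 30 UMIs over both libraries was called when its ratio was at least 1.5 or at most 1/1.5 with its whole interval on that side of 1. Of the 9 genes 8 had enough UMIs, all but Pou3f2. Of these, 1 was called higher in ENZ, where 1.95% of all 17987 such genes were, and 0 were called lower, where 5.33% were. The called gene was Chga, which reached 30 UMIs only through the ENZ library and whose call rested on the single barcode above. By the interval alone, Chga, Eno2, Ncam1 and Ezh2 lay above 1, which is 4 of 8 beside 28.0% of all such genes, and Sox2 lay below 1, which is 1 of 8 beside 26.9%. A ratio whose interval left out 1 was thus common in these deep libraries. Without the cells rich in endothelial or fibroblast markers, the intervals of Chga (0.582 to 30.2) and Ezh2 (0.998 to 1.05) held 1. Eno2 and Ncam1 were then left above 1.

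The place of each gene among the 17987 ratios puts their size in view. The middle of all ratios was near 1, with a median of -0.01 on the log2 scale and a 5th to 95th percentile range of -0.69 to 0.46. A higher ratio than that of Eno2 was seen in 6.89% of the genes. For Ncam1 this was 17.96%, and for Foxa2 and Ezh2 it was 43.8% and 43.7%, near the middle. For Sox2 it was 86.4%, in the lower part of the distribution but inside the 5th to 95th percentile range.

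**Figure D2:**
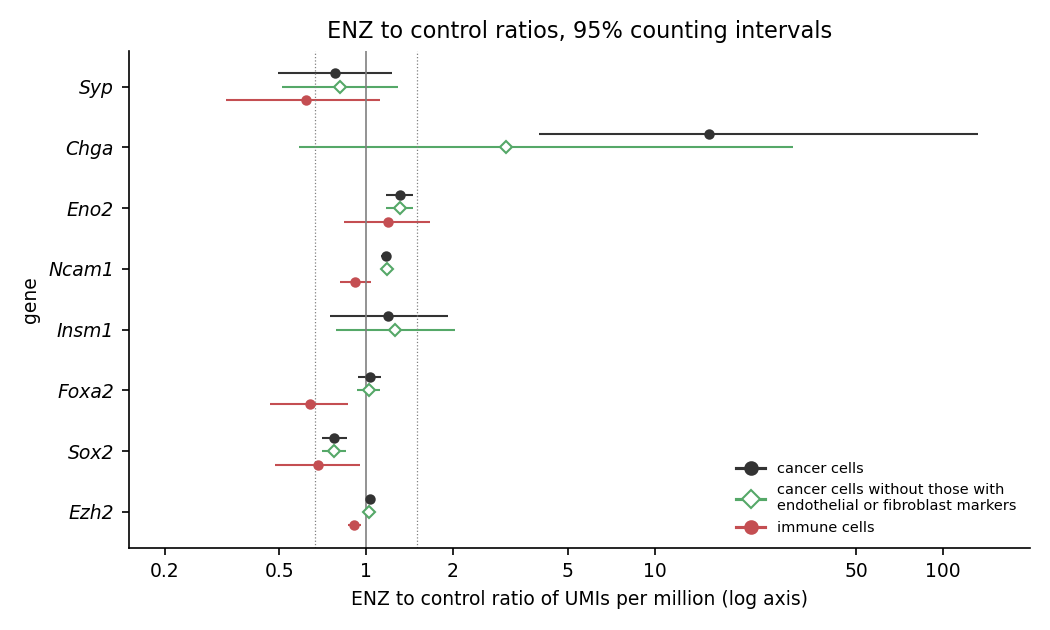
ENZ to control ratio of CPM (log axis) for the 8 genes with at least 30 UMIs, with 95% counting intervals, in the cancer cells, in the cancer cells without those rich in endothelial or fibroblast markers, and in the immune cells where they held at least 30 UMIs. Dotted lines mark 1.5 and 1/1.5, and the Chga ratio of 15.4 became 3.06 without the marker-rich cells while the other ratios barely moved.

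The share of cells with a UMI depends on depth, so every cancer cell was also thinned to 8000 UMIs. Sox2 UMIs were then present in 6.36% of control and 4.38% of ENZ cells, a difference of -1.97 points [-2.99 to -0.975]. Eno2 went the other way, from 4.81% in control to 6.36% in ENZ, a difference of 1.56 points [0.538 to 2.57]. For Ncam1 the shares were 27.0% and 29.2%, with a difference of 2.20 points [0.221 to 4.18]. The intervals of these 3 genes left out 0, with 2 of 8 higher in ENZ beside 19.1% of all such genes and 1 of 8 lower beside 15.0%. Ezh2 was found in 47.5% and 48.5% of thinned cells and Foxa2 in 6.15% and 6.85%, and both of those intervals held 0. Without thinning, the interval of Ezh2 also left out 0, which made 4 of 8 genes beside 44.5% of all genes.

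Set against the immune cells of the same tumor, Eno2, Ncam1, Foxa2 and Sox2 were more than 2 times as high in the cancer cells of both libraries. This is 4 of the 8 genes, beside 12.4% of 19375 genes higher by that measure and 18.3% lower. The cancer to immune ratio of Ncam1 was 2.84 in control and 3.61 in ENZ. For Sox2 it was 2.85 and 3.23, for Foxa2 2.41 and 3.89, and for Eno2 2.79 and 3.07. Against immune cells of at least 8000 UMIs, the minimum set for the cancer cells, Foxa2 fell to 1.81 in control and Sox2 to 1.88 in ENZ, which left 2 of the 4, Eno2 and Ncam1. The share of all genes past 2 was not computed at that setting, so this count has no background. Ezh2 was also higher in cancer cells, but only at 1.12 [1.08 to 1.17] and 1.27 [1.21 to 1.33]. Thinned to 1000 UMIs, which is a depth both groups reach, Sox2 UMIs were in 1.05% of cancer and 0.128% of immune cells of control and in 0.443% and 0.0881% of those of ENZ. For Ncam1 these shares were 5.12% and 0.941% in control and 5.57% and 0.470% in ENZ, and for Ezh2 they were 9.75% and 6.65% in control and 9.07% and 6.87% in ENZ.

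The immune cells were not free of cancer cell RNA. Free RNA was estimated at 62.8% of the immune cell UMIs in control and 34.5% in ENZ, from the level of Krt8 and Krt18 relative to barcodes of at most 100 UMIs and taking all keratin UMIs of immune cells as free RNA. For the cancer cells the estimate, made likewise from the neutrophil genes S100a8 and S100a9, was 4.23% and 3.41%. In those low barcodes Ncam1 stood at 30.3 and 37.0 CPM, Foxa2 at 4.96 and 5.24 CPM, Sox2 at 4.96 and 4.41 CPM and Eno2 at 4.70 and 6.34 CPM. The immune cell levels of these 4 genes lay below that in both libraries, so no expression by immune cells is read from them. Ezh2 stood at 95.5 and 80.2 CPM in the low barcodes, with intervals that overlapped those of the immune cells as a whole in both libraries. Among the immune cells 13.2% in control and 11.6% in ENZ had a marker sum of 2 or more, and these were deeper barcodes, with medians of 23334 and 16578 UMIs beside 4418 and 4606.5 in the rest. In these barcodes Ncam1 stood at 38.4 and 44.2 CPM, Foxa2 at 7.78 and 5.88 CPM, Sox2 at 6.60 and 5.76 CPM and Eno2 at 4.08 and 4.92 CPM. The values of Ncam1, Foxa2 and Sox2 lay above those of the low barcodes, though for Sox2 and for Foxa2 in ENZ within the counting intervals of the latter. These barcodes held 96.9% of the Sox2 UMIs of the control immune cells and 94.1% of those of ENZ. For Ncam1 these shares were 92.5% and 88.5%, for Foxa2 93.5% and 84.5%, and for Eno2 88.4% and 68.3%. In the immune cells with a marker sum of at most 1, only 4 Sox2 UMIs remained in control and 3 in ENZ, or 0.171 and 0.183 CPM. Ncam1 stood there at 2.48 and 2.94 CPM, far below the low barcodes, so the free RNA estimate does not describe these cells. Against these cells the cancer to immune ratio of Sox2 was 50.3 in control and 36.4 in ENZ, that of Ncam1 was 21.1 and 20.8, that of Foxa2 was 20.8 and 16.6, and that of Eno2 was 13.3 and 6.41. These cells were chosen for few UMIs of the genes of the cancer cell rule, so the size of these ratios was partly set by that choice. Ezh2 differed from the others here, with 83.7 and 77.5 CPM left in those cells, and Syp stayed at 1.16 and 0.795 CPM. The source of the cancer cell UMIs in immune barcodes was not tested.

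To place the genes over cell types, barcodes were classed by fixed marker lists, where a class needed UMIs of at least 3 of its markers and at least 2 more than any other class. Of the barcodes, 5618 in control and 3636 in ENZ met no class. Schwann-like and muscle-like classes had no member in either library. The cancer cell-like class held 3202 and 4041 barcodes, of which 3044 and 3854 also met the cancer cell rule. Its ENZ to control ratios were 0.775 for Sox2, 1.30 for Eno2 and 1.15 for Ncam1. With so many barcodes shared, their closeness to the ratios of the rule above is no separate check.

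Ncam1 was highest in the 79 control and 75 ENZ fibroblast-like barcodes, at 177 CPM [155 to 202] and 243 CPM [216 to 272]. Of these barcodes 56 and 58 also met the cancer cell rule, so the class is not apart from the cancer cells described above. The cancer cell-like barcodes came next in both libraries, at 51.6 and 59.6 CPM. Below them, the endothelial-like (8.32 and 23.3 CPM), T cell-like (9.44 and 7.58 CPM), neutrophil-like (9.26 and 2.88 CPM) and macrophage- or monocyte-like barcodes (7.97 and 5.36 CPM) were lower. The ENZ endothelial-like value rested on 7 UMIs, 6 of them in 1 barcode, and is not ordered against the others. The 17 and 9 B cell-like barcodes held 1 and 0 UMIs, too few to place. The ENZ to control ratio of Ncam1 in the fibroblast-like barcodes was 1.37 [1.15 to 1.64], and no Ncam1 UMI was found in the dendritic cell-like barcodes of either library. NK cells, which carry CD56 in humans, gave 0.511 and 2.72 CPM in the NK cell-like class here.

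Ezh2 had another order. The dendritic cell-like barcodes, 39 in control and 41 in ENZ, stood at 180 CPM [140 to 229] and 157 CPM [121 to 201]. T cell-like barcodes stood at 129 CPM in each library, NK cell-like barcodes at 113 and 94.1 CPM and cancer cell-like barcodes at 107 and 110 CPM. The intervals of the dendritic and T cell-like classes overlapped in both libraries, as did those of the NK and cancer cell-like classes, so neither pair could be ordered. Endothelial-like barcodes, at 85.3 and 73.3 CPM, had wide intervals that reached those of several classes. Macrophage- or monocyte-like barcodes were lower than cancer cell-like barcodes, at 74.6 and 58.8 CPM, and so were neutrophil-like barcodes at 55.6 and 38.8 CPM and fibroblast-like barcodes at 47.4 and 53.3 CPM. Of the classes with at least 30 Ezh2 UMIs, the macrophage- or monocyte-like class was the 1 whose ENZ to control interval left out 1, at 0.787 [0.715 to 0.867].

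Sox2 and Foxa2 had their highest measured level in the cancer cell-like class. Sox2 stood there at 8.79 CPM in control and 6.81 CPM in ENZ, and in the macrophage- or monocyte-like class at 1.49 CPM in control (27 UMIs) and 0.191 CPM in ENZ (2 UMIs). Foxa2 stood at 9.08 and 9.27 CPM in the cancer cell-like class and at 1.72 and 0.670 CPM in the macrophage- or monocyte-like class. For both genes, intervals of some small classes reached past the cancer cell-like level. An example is Foxa2 in the ENZ endothelial-like barcodes, at 3.33 CPM [0.0844 to 18.6]. Eno2 stood at 5.65 and 7.35 CPM in the cancer cell-like class and at 6.11 and 13.7 CPM in the fibroblast-like class. The intervals of these classes overlapped in control, while in ENZ that of the fibroblast-like class, on 17 UMIs, lay above that of the cancer cell-like class.

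**Figure D3:**
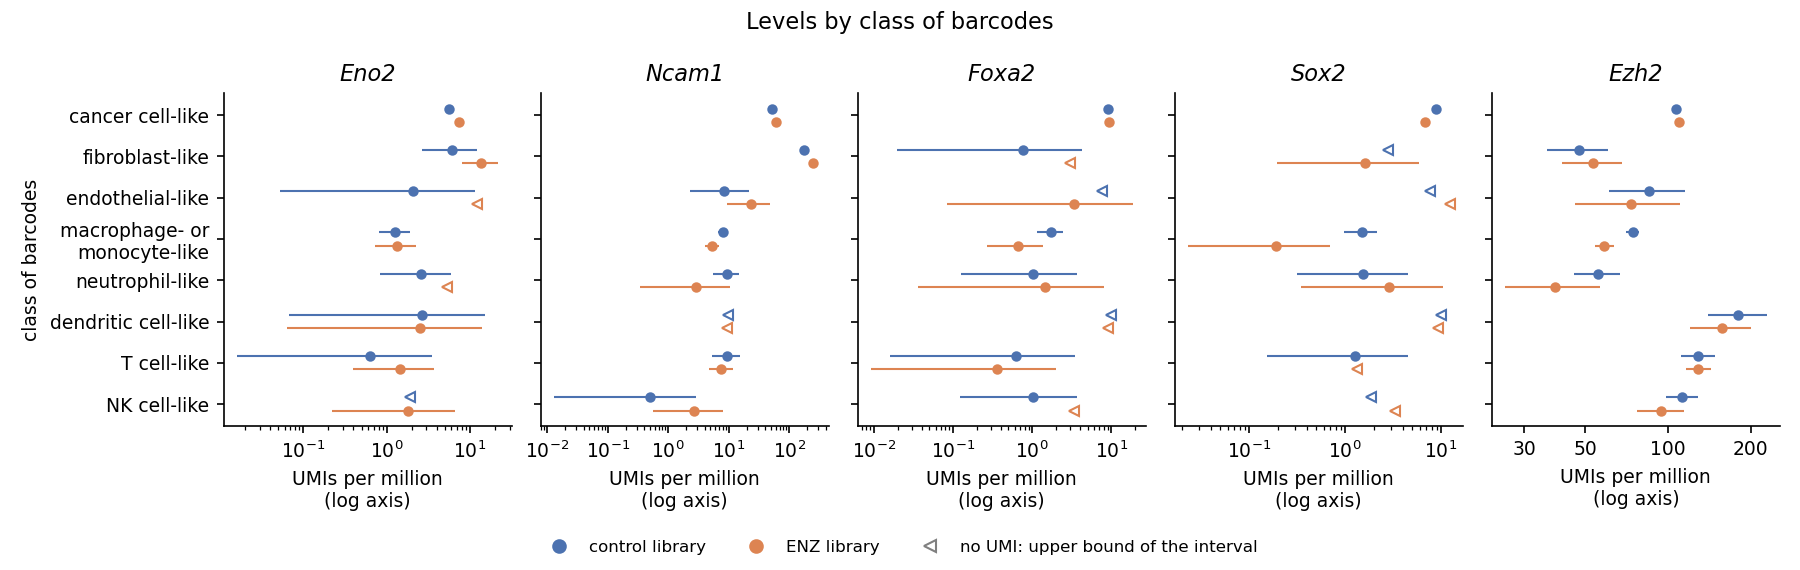
Level of 5 genes in CPM (log axes) in 8 classes of barcodes of each library, with 95% counting intervals and open triangles for the upper bound where no UMI was found. Ncam1 was highest in fibroblast-like barcodes at 177 and 243 CPM. Sox2 and Foxa2 had their highest measured level in cancer cell-like barcodes, which intervals of some small classes reached past. The intervals of Ezh2 overlapped between dendritic cell-like barcodes, at 180 and 157 CPM, and T cell-like barcodes.

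Within the cancer cells the genes varied with the division markers Mki67 and Top2a. After thinning to 8000 UMIs, 1088 control and 1119 ENZ cells held a sum of at least 3 UMIs of these markers, and 1864 and 2253 held none. Ezh2 stood at 65.5 CPM in the control cells with none, at 87.4 CPM in those with 1 or 2 and at 158 CPM in those with at least 3. In ENZ the same steps were 73.3, 97.6 and 158 CPM. The ratio of the highest to the lowest state was 2.41 [2.22 to 2.62] in control and 2.15 [1.99 to 2.32] in ENZ, and a ratio of at least 1.5 in both libraries was seen in 8.19% of 14794 genes. Ncam1 stood at 44.8, 41.7 and 66.3 CPM over the same states in control and at 51.2, 47.8 and 82.6 CPM in ENZ. It was thus higher in the cells with at least 3 marker UMIs, with ratios of 1.48 and 1.61 to those with none, but not in those with 1 or 2.

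Eno2 ran against division. Its level was 7.64 CPM in control cells with no division marker and 4.14 CPM in those with at least 3, and 10.6 and 5.70 CPM in ENZ. The ratios were 0.541 [0.361 to 0.793] and 0.538 [0.387 to 0.736], and a ratio of at most 1/1.5 in both libraries was seen in 8.99% of genes. Foxa2 ratios were 1.15 and 1.25, with 1 inside both intervals.

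Sox2 behaved differently in the libraries. In the cells with no division marker it stood at 8.85 CPM in control and 5.33 CPM in ENZ, a ratio of 0.602 [0.458 to 0.789]. In those with 1 or 2 UMIs of the markers the ratio was 0.408 [0.261 to 0.627]. In the dividing cells it stood at 7.81 and 7.93 CPM, a ratio of 1.02 [0.718 to 1.44]. With every UMI of the same cells counted, a setting chosen after seeing the data, the ratio was 0.715 [0.610 to 0.838] with no marker, 0.576 [0.459 to 0.721] with 1 or 2 and 0.979 [0.837 to 1.15] in the dividing cells, a smaller contrast between the states. The lower Sox2 level of the ENZ library was thus seen in the cells with few or no division markers. By either count, the interval of the dividing cells overlapped that of the cells with none but not that of the cells with 1 or 2, and the difference between the states was not tested. Among non-dividing cells, Sox2 stood at 9.02 CPM in control and 6.07 CPM in ENZ where Krt8 and Krt18 summed to at least 5, and at 7.14 and 2.94 CPM where they summed to at most 1.

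**Figure D4:**
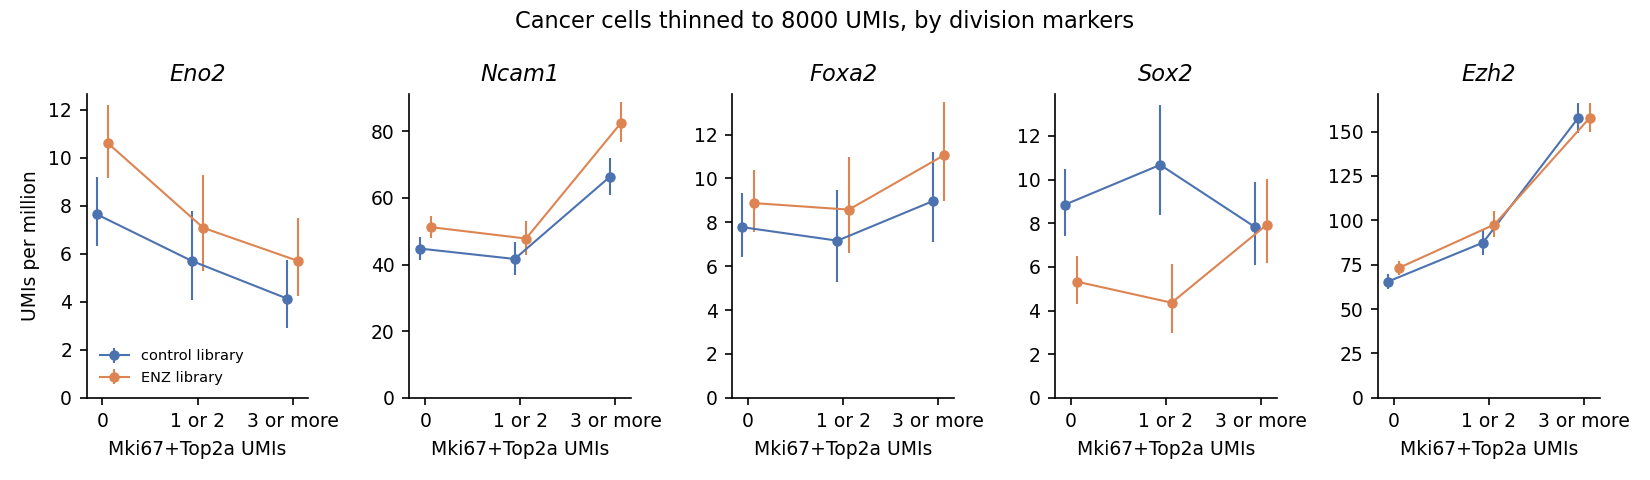
Level of 5 genes in CPM in cancer cells thinned to 8000 UMIs, by the sum of Mki67 and Top2a UMIs in the cell, with 95% counting intervals; lines join the states of 1 library. Ezh2 reached 158 CPM in the cells with at least 3 marker UMIs of both libraries, Eno2 was lowest there, and the Sox2 points of the libraries lay apart in the first and second state but together in the third.

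Ezh2 was also read by division markers in the immune cells. After thinning to 1000 UMIs it stood at 149 CPM in the immune cells with a Mki67 or Top2a UMI in each library, beside 69.6 CPM in control and 70.8 CPM in ENZ in those without. Among the immune cells with a marker sum of at most 1, which hold few cancer cell UMIs, it stood at 138 CPM [103 to 182] beside 71.8 CPM [63.4 to 80.9] in control and at 162 CPM [119 to 216] beside 68.3 CPM [58.9 to 78.9] in ENZ. That restriction was chosen after seeing the data, and the part of free RNA in these levels was not tested. Ezh2 was the only one of the 9 genes with a mean of at least 0.5 UMIs per thinned cancer cell in both libraries, so only for it were the most similar genes sought. Among 2701 genes these were Top2a, Pclaf, Hmgb2, Mki67 and Stmn1, with Spearman correlations across the 3807 control and 4290 ENZ cells of 0.278 and 0.229 for Top2a and of 0.221 and 0.213 for Stmn1. The cells of a library share its depth and preparation, and the correlations are a description.

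The 6 genes of low level or of transcription factors (Syp, Chga, Insm1, Pou3f2, Foxa2 and Sox2) were each found in few cells, so few cells could hold more than 1 of them. After thinning, none of them gave a UMI in 87.3% of the cancer cells in control and 88.4% in ENZ, 472 and 480 cells had a UMI of 1, and 13 and 16 cells had UMIs of 2. No cell had UMIs of 3 or more. Foxa2 UMIs were found in 4.55% of control cells with a Sox2 UMI and in 6.26% of those without, and in 6.91% and 6.85% of such ENZ cells. The intervals of these shares overlapped in each library.

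Around the 9 genes, 6 fixed lists of related genes were read in the same way. Of 21 neuroendocrine factors, 10 reached 30 UMIs in the cancer cells and 0 were called in either direction, beside 1.95% of all genes higher and 5.33% lower, with a median of -0.23 on the log2 scale beside -0.01 for all genes. Neurod1, a basic helix-loop-helix factor that drives neuroendocrine fate, and Nkx2-1 had no UMI in the cancer cells of either library, and were named after their values were seen. Hes1, a Notch target that represses neural genes, stood at 276 CPM in control and 185 CPM in ENZ (ratio 0.672), and Pou2f3, a factor of tuft cells, at 8.64 and 6.09 CPM (0.705). Rest, a repressor of neuronal genes, stood at 68.9 and 85.2 CPM (1.24), Foxa1, a pioneer factor of luminal cells, at 1.19 and 1.39 CPM (1.17), and Sox4 at 198 and 171 CPM. Onecut2, Srrm4, Foxa1, Sox4 and Dll1 were more than 2 times as high in cancer as in immune cells in both libraries. These are 5 of 12 with enough UMIs, and 2 of 12 were as far below, beside 12.4% and 18.3% of all genes.

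Of 34 vesicle and neuronal genes 24 had enough UMIs, 0 were called higher, beside 1.95% of all genes, and 2 lower, beside 5.33%, with a median of 0.04. The called genes were Gap43, a growth cone protein, at 0.209 and 0.0791 CPM (ratio 0.378 [0.152 to 0.861]), and St8sia4, an enzyme that adds polysialic acid to Ncam1, at 3.67 and 2.20 CPM (0.599). St8sia4 stood far higher in the immune cells, at 72.8 and 91.7 CPM. The summed macrophage or monocyte and neutrophil markers were also lower in the ENZ cancer cells, as given below, though Mmp9 and Ly6c2 were higher. The part of immune cell RNA in the St8sia4 ratio was not tested. Gap43 gave 21 and 9 UMIs, just the minimum of 30 over both libraries. Syt1, the calcium sensor of vesicle release, stood at 11.4 CPM in control and 15.6 CPM in ENZ (1.36), and Pcsk2, a prohormone convertase, at 0.1496 and 0.211 CPM (1.41). Cpe, a prohormone-processing enzyme, stood at 93.7 and 117 CPM. Relative to immune cells, 7 of 29 were more than 2 times as high in both libraries, among them Scg2, Snap25, Syt1 and Cpe. As many, 7 of 29, were as far below, among them L1cam, Nrcam, Pcsk1 and St8sia4. These counts stand beside 12.4% and 18.3% of all genes.

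All 19 PRC2 and related chromatin genes had enough UMIs, with 1 called higher (1.95% of all genes), 0 lower (5.33%) and a median of 0.13. The called gene was Jarid2, a PRC2 cofactor, at 124 CPM in control and 189 CPM in ENZ (ratio 1.53). Dnmt3a, a DNA methyltransferase, stood at 51.8 and 67.3 CPM (1.30), and Kdm6a, which removes the mark that Ezh2 sets, at 58.1 and 55.3 CPM. The histone-binding subunits Rbbp4 and Rbbp7 stood at 158 and 155 CPM and at 166 and 169 CPM. None of these 19 genes was more than 2 times as high in cancer as in immune cells in both libraries, and 1 was as far below, beside 12.4% and 18.3% of all genes.

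Of 18 plasticity and reprogramming genes 13 had enough UMIs, with 0 called higher, where 1.95% of all genes were, 1 lower, where 5.33% were, and a median of -0.01. The called gene was Lin28b, which blocks let-7 maturation, at 2.08 CPM in control and 1.35 CPM in ENZ (0.650). Its UMIs, 209 and 154, came from few cells, and the share of cells with a UMI was close, at 1.65% and 1.52%. Myc stood at 6.39 and 4.91 CPM (0.768), Klf4, a reprogramming factor, at 25.5 and 32.4 CPM, and Nes, an intermediate filament gene of neural progenitors, at 64.8 and 83.3 CPM (1.29). Zeb1, a repressor of epithelial genes, stood at 232 and 285 CPM, and Trp53 at 250 and 225 CPM. Sox9, Nes, Twist1 and Snai2 were more than 2 times as high in cancer as in immune cells in both libraries. These are 4 of 15, and 4 of 15, among them Klf4, were as far below, beside 12.4% and 18.3% of all genes.

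Of 12 luminal and basal genes 7 had enough UMIs and 0 were called, beside 1.95% of all genes higher and 5.33% lower, and the median was 0.00. Relative to immune cells 3 of 7 (Krt8, Krt18 and Krt19) were more than 2 times as high in both libraries and 2 of 7 as far below, beside 12.4% and 18.3% of all genes. Hoxb13, a factor of the prostate luminal lineage, and Krt5, a basal keratin, had no UMI in the cancer cells. The luminal keratin genes Krt8 and Krt19 had ratios of 1.16 and 1.24, while Krt18 stood at 357 and 358 CPM and Krt15 at 3.07 and 2.49 CPM. Hoxb13 and Krt5 were named after their values were seen. All 16 cell cycle genes had enough UMIs and 0 were called, beside the same 1.95% and 5.33%, and the median was -0.11 beside -0.01 for all genes. Of their ratios, those of Tyms (0.733) and Ccnb2 (0.745) were lowest and those of Ccne1 (1.08) and Ccne2 (1.09) highest, while Top2a stood at 381 and 374 CPM and Pcna, a replication clamp, at 228 and 204 CPM.

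**Figure D5:**
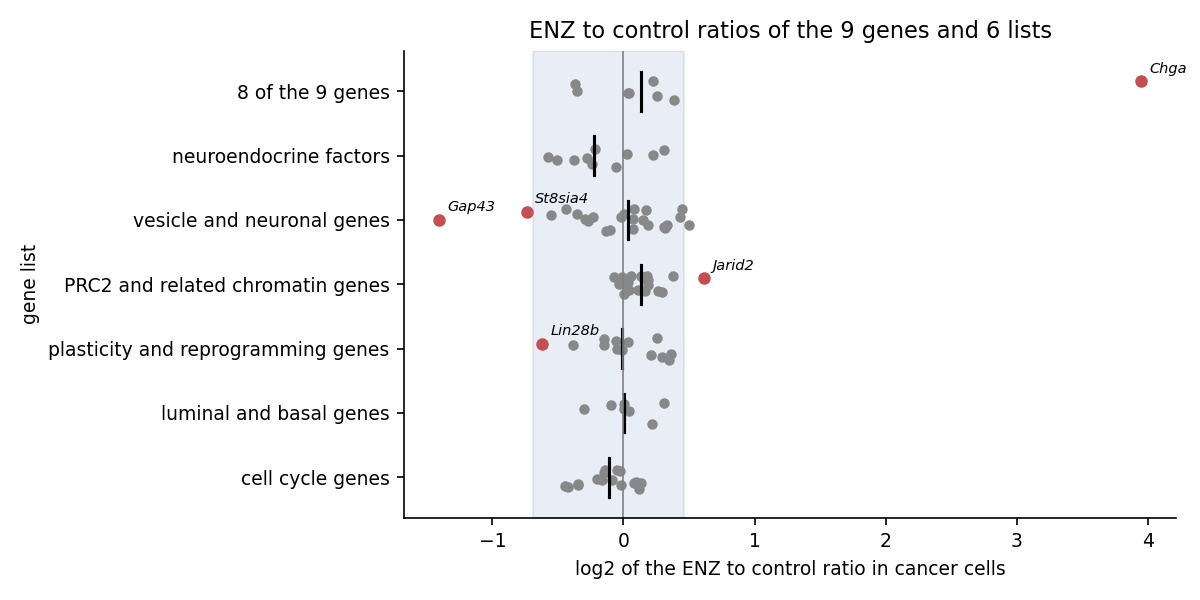
Log2 of the ENZ to control ratio in cancer cells for each gene with at least 30 UMIs, for 8 of the 9 genes and for 6 lists, with a black bar for the median of each and the called genes in red. The shaded band spans the 5th to 95th percentile of all 17987 genes, -0.69 to 0.46, and holds most genes of each list.

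Markers of other cell types in the cancer cells were summed over each list. The fibroblast list stood at 1046 CPM in control and 1006 CPM in ENZ, led by Col3a1 at 522 and 520 CPM, and the endothelial list at 59.3 and 53.5 CPM, led by Cdh5. The macrophage or monocyte list stood at 175 and 86.7 CPM and the neutrophil list at 143 and 92.0 CPM. Of their markers, Mmp9 (45.3 and 58.5 CPM) and Ly6c2 (1.47 and 1.74 CPM) were higher in ENZ, and the others were lower. Dendritic cell markers, led by Fscn1, stood at 178 and 169 CPM, B cell markers at 24.3 and 23.7 CPM, T cell markers at 7.999 and 7.37 CPM and NK cell markers at 7.58 and 4.67 CPM. Muscle markers stood at 16.7 and 15.4 CPM with Myog and Myod1 at 0, and Schwann cell markers at 4.87 and 3.15 CPM with Foxd3 and Cdh19 at 0 in ENZ. The part of these other RNAs in the ratios of the 9 genes was not tested. Without the cells rich in endothelial or fibroblast markers, Sox2 stood at 8.75 and 6.77 CPM, Eno2 at 5.67 and 7.40 CPM, Foxa2 at 9.07 and 9.25 CPM and Ezh2 at 106 and 109 CPM, close to the values with them.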

How the data were processed

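The authors deposited, for each of the 2 libraries, a matrix of UMI counts per gene and barcode. Its header names Cell Ranger 7.2.0, while the submitters' processing notes name Cell Ranger 2.1.1 and mm10. The labels name the 3′ v2 kit. Whether intronic reads were counted was not given in the sources used here. The deposited counts list 2438568 control and 2239744 ENZ barcodes with 170830346 and 162030149 UMIs. Empty droplets were thus not removed from the deposited counts.

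From these counts, Python 3.11.15 with numpy 2.4.6, scipy 1.17.1, pandas 2.3.3, scanpy 1.11.5 (Scrublet) and matplotlib 3.10.9 was used. Cell rules were applied as given in the text, and the minimum of 1000 UMIs and the mitochondrial limit for immune cells were added here. No doublet caller was used except as an alternative. Of the 8481 and 7696 cancer and immune barcodes, 20 occur in both libraries. UMIs were summed per group of cells. Levels have exact Poisson, shares Clopper-Pearson, ratios conditional binomial and share differences Newcombe intervals at 95%, and a share of 0 is given a limit of 3 counts. Molecules were counted by UMI, and all intervals cover counting error only. Cells were thinned by drawing UMIs without replacement, and no cancer cell was too shallow for 8000.

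Most genes named besides the 9 came from a rule: in each of the 6 lists, the 2 top and 2 bottom ratios among genes with at least 30 UMIs and the 2 most abundant genes, and, for a gene with a mean of at least 0.5 UMIs per thinned cell the 5 most correlated genes. Onecut2, Srrm4, Dll1, Snap25, Scg2, L1cam, Nrcam, Pcsk1, Sox9, Twist1, Snai2, Mmp9, Ly6c2 and the genes with no UMI fall outside it and were named after their values were seen. Some genes that the rule or the lists hold are not reported here. Genes were placed by GENCODE M21, which held 32235 of 32285 identifiers. The scripts were tested on simulated data. The members, lists and markers were chosen with earlier results of these data known.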

Additional observations from a re-analysis of the deposited data

Results flagged for a closer look

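Ezh2 had an ENZ to control ratio of 0.910 [0.863 to 0.960] in the immune cells and of 1.03 [1.001 to 1.05] in the cancer cells, the latter 1.02 [0.998 to 1.05] without the cells rich in endothelial or fibroblast markers. With 1 library per condition the difference between the groups was not tested. Among the immune classes the T cell-like ratio was 1.001, and the interval left out 1 in the macrophage- or monocyte-like class alone. The free RNA share of the immune cells was estimated at 62.8% in control and 34.5% in ENZ. That estimate took all their keratin UMIs as free RNA and does not describe the immune cells with a marker sum of at most 1. Barcodes with a marker sum of 2 or more, 13.2% and 11.6% of the immune cells, held 50.3% and 39.8% of their Ezh2 UMIs. The part of free RNA or of these barcodes in the ratio was not tested. Chga gave 1.80 CPM [1.13 to 2.73] in the 3772 control barcodes outside both cell groups, above the 0.0199 CPM of the control cancer cells, and 18 of those 22 UMIs were in the 1 barcode with 8 of 8 endothelial markers.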

How the results depend on the processing

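Under 14 alternatives, the ENZ to control ratio in the cancer cells stayed below 1 for Sox2 (0.713 to 0.787) and Syp (0.706 to 0.898) and above 1 for Ncam1 (1.13 to 1.18), Eno2 (1.26 to 1.34), Insm1 (1.07 to 1.32) and Ezh2 (1.02 to 1.09), while Foxa2 ranged from 0.963 to 1.04, on both sides of 1. The alternatives share many of their cells and UMIs. The main intervals of Syp (0.495 to 1.23) and Insm1 (0.749 to 1.92) held 1, so no difference is read for these genes. The count of called genes, 1 (Chga), was 0 with Krt8 and Krt18 in place of the marker sum, 0 with free RNA subtracted and 0 without the cells rich in endothelial or fibroblast markers, an alternative chosen after seeing the data. The Chga ratio ranged from 2.88 to 31.0. The count of genes whose share of cells differed, 4, was 1 (Sox2) with cells thinned to 1000 UMIs, where the Ezh2 difference reversed to -0.678 points with an interval that held 0. The count of genes more than 2 times as high in cancer as in immune cells, 4, was 2 (Eno2 and Ncam1) against immune cells of at least 8000 UMIs. For this count and the one before it, the share over all genes at the alternative setting was not computed. With free RNA subtracted, no ratio to immune cells could be had for Eno2, Ncam1 and Sox2 in control, since no level was left there. The count of all genes past 1.5-fold, 1309, was 837 with a minimum of 100 UMIs, with 216 higher (351) and 621 lower (958). Median-of-ratios scaling shifted the ratios by -0.0106 on the log2 scale. Scrublet called 295 control and 292 ENZ barcodes. No paired analysis was possible because control and ENZ each consist of a single library. Depth limited Syp, Chga, Insm1 and Pou3f2, each with under 50 UMIs in the cancer cells of either library.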
